A study of Mus musculus with 103 samples.

Results

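Libraries 28018 and 28014 are 2 RNA-seq libraries of mouse embryonic fibroblasts that were put in a gene table of their own, apart from the 27 other RNA-seq libraries of the study, under a name that refers to serum stimulation. They were taken as the pair that this table holds, 2 of 103 samples in all and 2 of 29 RNA-seq libraries. Both are labelled Ctcf(fl/fl) Wapl(fl/fl), C57BL/6, E13.5, clone 3, treated with Adeno-Cre for 4 h and rested for 10 d, so their labels differ in nothing but the library number. Adeno-Cre is an adenovirus that carries Cre recombinase, which cuts out the loxP-flanked (fl) stretch of both genes, and resting means that the cells were kept without dividing. No label of either library names serum. The 1 sample of the series with a serum label is a chromatin immunoprecipitation of Scc1 from cells of the same genotype, with 4 h of Adeno-Cre, 10 d of rest and 6 h in 20% serum.

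The study deleted Ctcf, the cohesin subunit Smc3 or the cohesin release factor Wapl in resting fibroblasts and measured RNA and protein binding along the genome. Of the 29 RNA-seq libraries, 3 carry the labels of this pair: 28014, 28018 and, in the large table, library 30256 of clone 4. Libraries 28013 (clone 3) and 30255 (clone 4) are the untreated controls, Ctcf(fl/fl) Wapl(fl/fl) cells rested for 10 d with no Adeno-Cre. The other RNA-seq libraries used as a reference range are wild-type and Ctcf(fl/fl) cells with and without Adeno-Cre, and Rosa26(CreER/+) cells, alone or with Smc3(fl/fl), Smc3(fl/-) or Wapl(fl/-), with and without 4'hydroxytamoxifen for 2-3 d. The clone number is all that the labels give on the source of the cells. Because 1 library stands against 1 library of the same label, no difference between them has a replicate check, none was tested, and no p-value is given.

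CTCF is a zinc finger protein that binds insulator sites and halts cohesin, the ring complex that folds chromatin into loops, and WAPL releases cohesin from DNA. Fibroblasts that leave rest on contact with serum pass through a known order of gene classes. Immediate early genes such as the AP-1 and Egr factors come first, driven by growth factor receptors, ERK kinases and the serum response factor SRF, and feedback phosphatases, secreted growth factors, Myc and the genes of ribosome assembly follow. Genes kept high at rest by FoxO factors, such as Cdkn1b and Ccng2, are known to be shut off. Fibroblasts are also the main makers of collagens, elastic fibres and small proteoglycans, and adenoviral DNA is known to set off interferon genes.

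Library 28018 differed from 28014 in 3 broad ways. Genes of serum-induced secreted factors, ribosome assembly and several matrix groups stood higher in 28018, with Inhba at 37.5-fold, Hbegf at 30.9-fold and Nop56 at 5.26-fold. Interferon-linked genes stood lower, with Isg15 at 325 RPKM in 28014 and 3.95 in 28018. The levels of Ctcf and Wapal, the gene of WAPL, were 2.40 and 2.32 times as high in 28018 as in 28014. In the large table, 28 genes set Ctcf-deleted libraries apart. By the midpoint of the gap, 27 of the 28 were not on the deleted side in 28018. For many of the genes that were lower in deleted libraries, 28018 lay between the deleted and the other libraries, as it did for Ctcf itself.

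The values are RPKM, reads scaled to the length of the gene in kilobases and to the depth of the library. The read steps that the values hold gave 33121705 reads in genes for 28014 and 34855087 for 28018, against 8467390 to 41070352 in the large table, so 1 RPKM of 28014 stands for a median of 93.1 reads. Differences are log2((RPKM + 1)/(RPKM + 1)), 28018 against 28014, over 11226 gene entries with at least 1 RPKM in 1 of the 2 libraries, and a gene was called 2-fold different from a value of 1 on that scale. Of these entries, 1009 (8.99%) were called higher in 28018 and 1890 (16.8%) lower, so that 34.8% of the calls were higher. Centring each library on its expressed genes adds 0.24 to every difference, and the split becomes 1449 higher and 1230 lower, or 54.1% higher. Intervals are exact 95% intervals from the recovered reads, and they cover counting error only.

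Pairs of libraries with the same genotype and treatment labels show how far like-labelled cells of different clones usually stood apart. In the 15 such pairs within the large table, 0.887% to 9.21% of genes were called 2-fold different, with a median of 3.20%. Between 28014 and 28018, which share even the clone number, it was 25.8%. Library 28018 against 30256 gave 26.7%, and 28014 against 30256 gave 10.2%, both across 2 tables that were normalized separately. The pairs that hold 28018 thus had the highest shares.

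**Figure D1:**
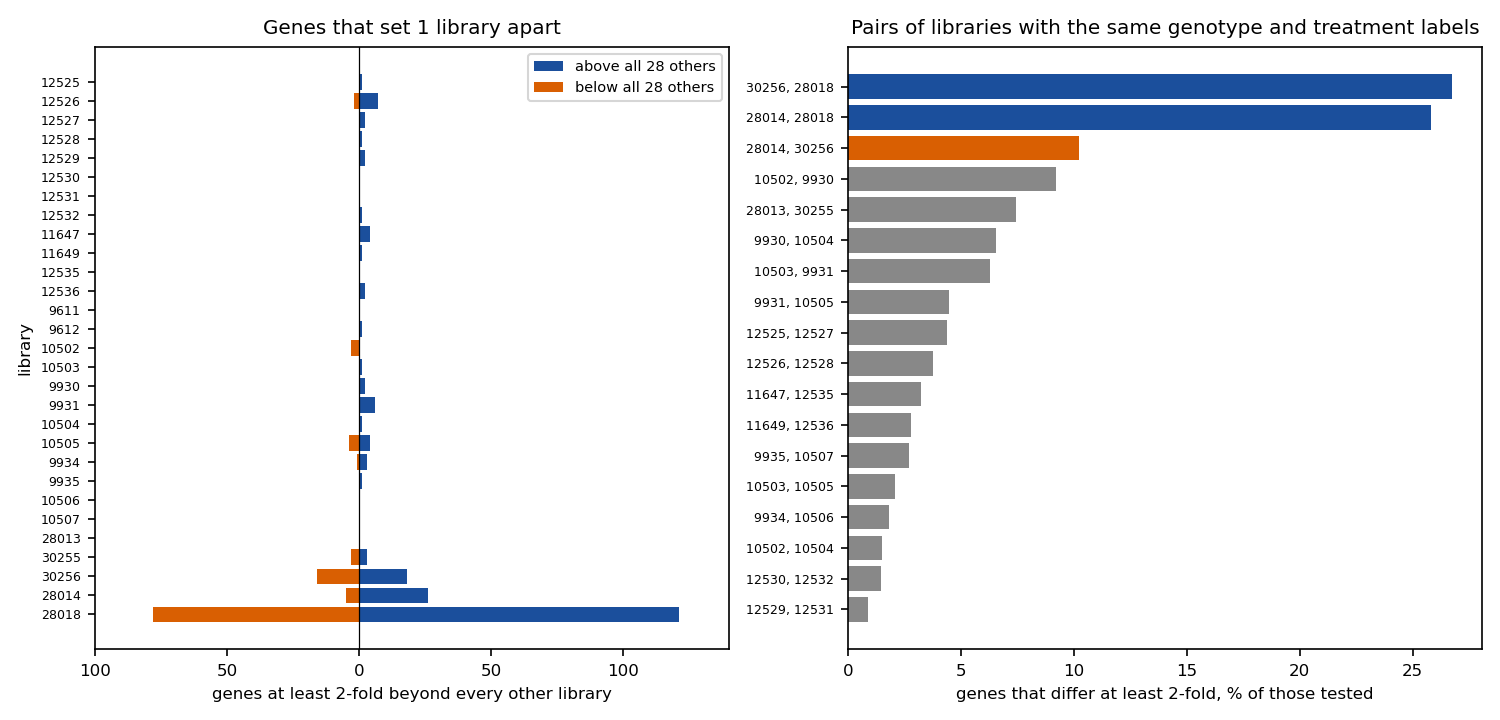
Left, for each of the 29 RNA-seq libraries, the number of genes at least 2-fold above (right of 0) or below (left of 0) all 28 others; library 28018 has 121 above and 78 below, or 163 and 39 with each library centred (not drawn). Right, the percentage of genes called 2-fold different in the 18 pairs of libraries with the same genotype and treatment labels; the pair of 28014 and 28018 sits at 25.8%, while the 15 pairs within the large table lie between 0.887% and 9.21%.

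Ctcf was at 3.17 RPKM in 28014 (402 reads, 2.87 to 3.50) and at 7.62 in 28018 (1015 reads, 7.15 to 8.10), a ratio of 2.40 (2.14 to 2.70). The 3 libraries of the large table that are labelled as Ctcf-deleted had 3.76, 4.04 and 4.23 RPKM, and the 24 not labelled so had 9.26 to 18.9. Library 28014 was therefore below all deleted libraries, and 28018 lay in the gap between the deleted and the other libraries, closer on the RPKM scale to 28013 (9.26) than to 30256 (3.76). The tables were normalized separately. After scaling each library by the median of its gene ratios, Ctcf was at 3.03 in 28014, 8.96 in 28018, 9.72 in 28013 and 3.41 in 30256.

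Wapal was at 0.902 RPKM in 28014 (137 reads) and at 2.09 in 28018 (334 reads), a ratio of 2.32 (1.89 to 2.85). On the log2(RPKM + 1) scale this low level gives a difference of 0.70, which is not called, while Ctcf is called at 1.04. The libraries labelled as Wapl-deleted had 0.780, 0.914 and 1.52 RPKM, the last being 30256. The untreated double-floxed libraries had 2.72 and 3.92. As for Ctcf, 28018 was above every deleted library and below both untreated ones, and 28014 was within the deleted range. These levels are reads over the whole gene, so transcripts that lack the deleted stretch still add to them.

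A wider set of genes was read for the same question. In the large table, 28 genes had all 3 Ctcf-deleted libraries at least 2-fold beyond all 24 others on the log2(RPKM + 1) scale, 5 of them higher and 23 lower; they were picked after earlier results were known, and neither 28014 nor 28018 was used to pick them. Library 28014 was on the deleted side, by the midpoint of that gap, for all 28. Library 28018 was on it for 1, Hddc3, at 2.13 RPKM. The midpoint alone does not place 28018 within the range of the other libraries, since many of the 23 lower genes lay in the gap. Dhrs4 was at 10.45 RPKM in 28018, against 2.49 to 5.21 in the deleted libraries and at least 15.9 in the others. Ndufaf3 was at 11.45, against 2.58 to 5.63 and at least 15.5. Also in the gap were Ankrd46, B3galtl, Def8, Hddc3, Man2b2, Mdp1, Pcdhb22, Scrn2 and a RIKEN clone. For the genes given next, 28018 was within or beyond the range of the others. Mrps2, a mitochondrial ribosomal protein, was at 1.54 RPKM in 28014 and 24.6 in 28018, against 2.21 to 4.41 in the deleted libraries and 14.6 to 23.6 in the others. Gaa, the lysosomal alpha-glucosidase, was at 63.6 and 228 RPKM, against 30.5 to 71.6 in the deleted libraries and 189 to 435 in the others. Cldn3, a tight junction claudin, ran the other way at 63.5 RPKM in 28014 and 0.454 in 28018, against 16.2 to 27.1 in the deleted libraries and 0 to 1.04 in the others.

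No gene separated the 3 Wapl-deleted libraries of the large table by a 2-fold gap. At a 1.5-fold gap 5 genes did, with 28014 on the deleted side for 5 and 28018 for 0. For Adeno-Cre treatment itself, with wild-type cells included, the 2-fold gap left Hist1h4h, a histone H4 gene, and Tubb3, a beta-tubulin. Hist1h4h was at 297 RPKM in 28014 and 10.3 in 28018, against 111 to 252 in the 5 treated libraries and 1.46 to 37.0 in the 22 others. Tubb3 was at 188 and 35.0, against 103 to 158 and 3.08 to 41.1. For both genes 28018 was inside the range of libraries with no Adeno-Cre label. At a 1.5-fold gap 9 genes separated the treated libraries, with 28014 on the treated side for 8 and 28018 for 2.

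Genes of the sex chromosomes also differed within the pair, although both carry the label of clone 3; the labels give no sex. Xist, the RNA of the inactive X, had 0 reads in 28014 and 619 in 28018 (0.988 RPKM). The Y-linked genes Eif2s3y, Ddx3y, Kdm5d and Uty had 372, 137, 185 and 76 reads in 28014. In 28018 Eif2s3y had 1 read and the other 3 had none, and 3 reads would stand for 0.0185 RPKM of Ddx3y. Library 28013, labelled as the untreated cells of clone 3, was like 28014, with Xist at 0, Eif2s3y at 5.07 RPKM and Ddx3y at 3.68. Libraries 30255 and 30256 of clone 4 had Xist at 3.67 and 3.17 RPKM and Eif2s3y at 0. In these genes the pair differed in the way that libraries of clones 3 and 4 did. The source of the cells and any other difference between the 2 libraries cannot be told apart.

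**Figure D2:**
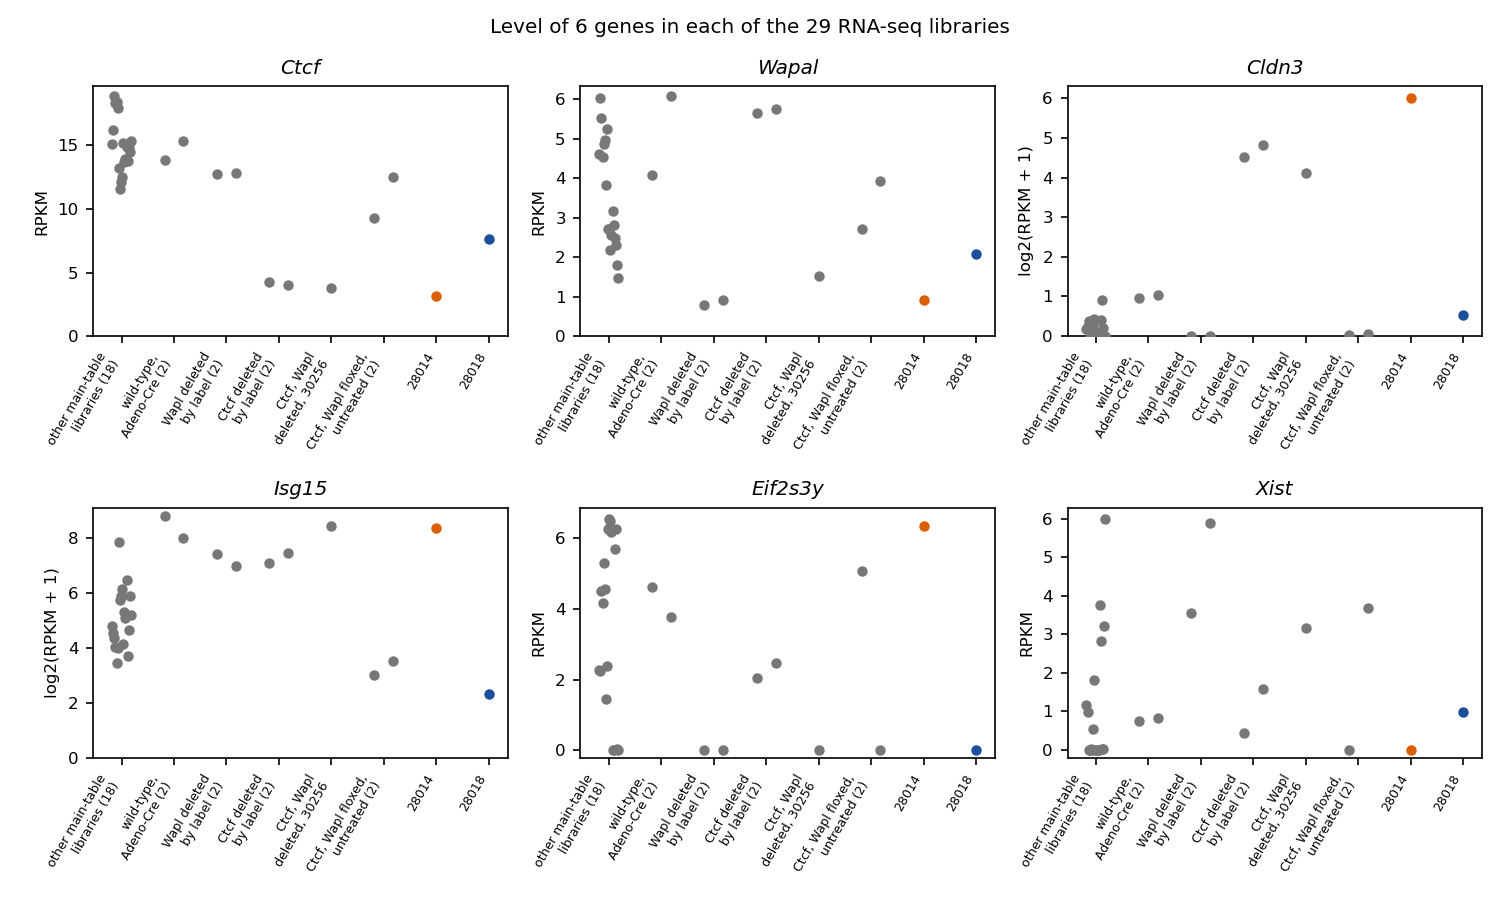
Levels of Ctcf, Wapal, Eif2s3y and Xist (RPKM) and of Cldn3 and Isg15 (log2(RPKM + 1)) in the 29 RNA-seq libraries, 1 point a library, in 8 classes by label. For Ctcf, 28014 (orange) is the lowest library at 3.17 and 28018 (blue) lies at 7.62, between the deleted libraries and the rest; for Cldn3, 28014 is the highest and 28018 is at 0.454 RPKM.

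Over the 8711 genes compared across both tables, the library nearest to 28018 was 28013, the untreated library, with a median absolute log2 difference of 0.436. An untreated wild-type library came next at 0.480, and 28014 stood at 0.583. Library 28014 was about equally near to the Ctcf-deleted library of clone 1 (0.404, or 0.403 centred) and to its like-labelled library 30256 (0.405, or 0.398 centred). Library 28018 to 30256 was 0.631, or 0.504 with each library centred. These are descriptions of single libraries from 2 tables that were normalized separately.

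The highest gene of 28018 by difference was Gjb2, which makes the gap junction protein connexin 26. It had 0.377 RPKM (30 reads) in 28014 and 153 RPKM in 28018, a difference of 6.80, while the 27 libraries of the large table had 0.0277 to 8.85. Wnt2, a Wnt ligand, was at 0.228 and 44.8 RPKM and Aldh1a3, a retinoic acid synthesis enzyme, at 0.107 and 26.2. Tgm2, a transglutaminase that links matrix proteins, was at 2.76 and 108. Rgs16, which turns off G protein signals, was at 2.65 and 99.96, and Tmem200a at 0.477 and 28.9. Errfi1, a feedback inhibitor of the EGF receptor, was at 6.92 and 164. Each of these 7 genes was higher in 28018 than in any of the 28 other libraries.

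Other genes at the top of the list were also high in 1 or both untreated libraries. H19, an imprinted noncoding RNA whose locus CTCF is known to insulate, was at 26.3 RPKM in 28014 and 1017 in 28018, but also at 1100 in 28013 and 556 in 30255, and at 68.9 in 30256. The uroplakin genes Upk1b (0.478 and 38.5 RPKM) and Upk3b (2.22 and 77.6) had 17.4 and 38.7 in 28013 and 34.7 and 52.3 in 30255, all below 28018. Dlk1, another imprinted gene, was at 10.7 and 318, with 144 in 28013 and 5.37 in 30255. Reg1, a secreted lectin, was at 1.49 and 62.1, with 117 in 28013 and 0 in 30255. For H19, Upk1b and Upk3b the 2 untreated libraries and 28018 were all high, and 28014 and 30256 were low.

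The lowest genes of 28018 were mostly genes that were high in both 28014 and 30256 and low in the untreated cells. Nxph4, a neurexophilin, was at 152 RPKM in 28014, 86.2 in 30256 and 2.16 in 28018. Slc29a4, a monoamine transporter, was at 35.3, 22.0 and 0.596. H2-Aa, a class II antigen presentation chain, was at 20.8 and 9.61 against 0.107 in 28018, which is 4 reads. Rec8, the meiotic form of the cohesin kleisin subunit, was at 15.3 in 28014 (1034 reads) and 24.4 in 30256, and had 0 reads in 28018, at least 363-fold lower by a floor of 3 reads per library. Both untreated libraries were at or under 6.52 RPKM for each of these 4 genes.

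Ms4a4d (84.7 and 2.53 RPKM), Reep6 (39.1 and 1.48), Hrct1 (19.5 and 0.534) and Cbr2, a carbonyl reductase (71.5 and 4.21), completed the low end together with Cldn3, Hist1h4h, the interferon genes below and Dbp. Cbr2 was not low in both untreated libraries, with 4.29 in 28013 and 33.8 in 30255. Neither was the clock output factor Dbp, at 2.12 RPKM in 28018, 45.4 in 28014, 27.3 in 28013 and 11.7 in 30255. Entries that are only predicted, RIKEN clone names, short noncoding RNAs and antisense transcripts made up 51 of the 1009 higher and 135 of the 1890 lower genes, and they are not named.

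**Figure D3:**
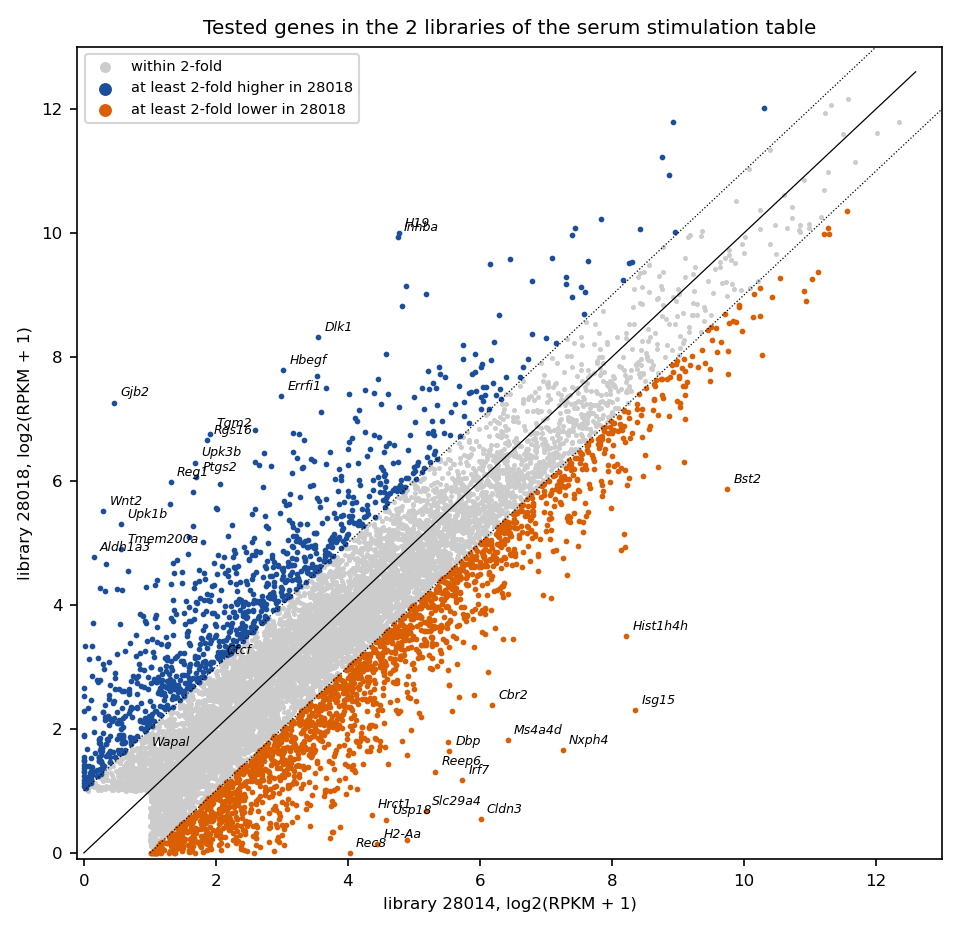
Level of each gene in 28014 (x axis) and 28018 (y axis), both log2(RPKM + 1), with equality as a solid line and 2-fold differences as dotted lines; labelled points are genes named in the text. Gjb2 (0.377 and 153 RPKM) and Inhba (26.04 and 976) lie far above the lines, and Isg15 (325 and 3.95) and Cldn3 (63.5 and 0.454) far below.

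The interferon list holds 37 genes, and 36 had at least 1 RPKM in 1 of the 2 libraries. All of these 36 were lower in 28018, 35 of them 2-fold (background 16.8%), with a median difference of -1.72 against -0.22 over all genes. Since 21 of the 36 passed only through 28014, that count is no support by itself. Of the 15 genes with at least 1 RPKM in both, 14 were 2-fold lower, and Gbp2, at 2.74 and 2.69 RPKM, was the 1 that was not. Over all genes with at least 1 RPKM in both, 1455 of 9760 were lower. The summed level of the list was 1520 RPKM in 28014 and 1622 in 30256, against 116 in 28018, 184 in 28013 and 191 in 30255. By this sum the 5 double-floxed libraries split into 2 that were high and 3 that were low, with 28018 the lowest.

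Isg15, a ubiquitin-like protein that interferon induces, was at 325 RPKM in 28014, 338 in 30256, 7.02 in 28013, 10.4 in 30255 and 3.95 in 28018. Wild-type cells with Adeno-Cre had 252 and 435, so the high level was not limited to libraries with a floxed gene. Bst2, the tetherin that holds viruses at the cell surface, was at 858 in 28014, 909 in 30256 and 57.6 in 28018, with 58.4 and 76.8 in the untreated libraries. Irf7, a factor that drives interferon genes, was at 52.1 and 1.25, and Usp18, which removes Isg15 from proteins, at 22.8 and 0.437. Against both untreated libraries, 24 of 36 list genes were 2-fold above in 28014 (background 6.64% above and 4.57% below) and 5 of 20 were 2-fold below in 28018 (background 3.64% above and 4.01% below). The level filter let 36 genes through with 28014 and 20 with 28018 in its place, so the first count holds genes that passed only through 28014, where they are high, and it supports nothing. The 2 counts share the same controls, and those of 28018 also share that library with the pair, so they only stand side by side. Isg15 was at 135 RPKM or more in the 5 Adeno-Cre libraries of the large table, but a high level was not particular to them: an untreated Ctcf(fl/fl) library had 229, and the tamoxifen-treated Wapl(fl/-) libraries had 169 and 124. Library 28018 had the lowest value of all 29.

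The promoters of Isg15 and Bst2 are shown since these 2 genes carry the largest interferon-linked levels of 28014. The stretches run from 150 to 51 bases before the start of the gene on its own strand, in RefSeq's annotation of GRCm38.p6, and capitals mark matches to GAAA, any 2 bases and GAAA again, the core of the interferon-stimulated response element, searched on both strands. The Isg15 stretch is chr4:156200869-156200968 on the minus strand, with 3 overlapping matches, and the Bst2 stretch is chr8:71537523-71537622 on the minus strand, with 2.
Isg15: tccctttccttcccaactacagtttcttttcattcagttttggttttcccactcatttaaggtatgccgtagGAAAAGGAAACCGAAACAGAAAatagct
Bst2: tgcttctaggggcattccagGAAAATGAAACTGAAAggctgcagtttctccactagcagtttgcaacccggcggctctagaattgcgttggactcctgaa
Of the 37 list genes, 27 had a promoter in the RefSeq table, and 14 of these (51.9%) held the motif between 250 bases before and 50 after the start, against 3.49% of 27025 genes. A match is a description of letters, not of a bound site.

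Of the 38 immediate early genes, 16 were called higher in 28018 and 5 lower (background 8.99% and 16.8%), with a median difference of 0.75. That median lies within the spread of this list between like-labelled libraries, whose medians reached 2.28, so the list as a whole did not stand out. Its members did not move as one group. The dual-specificity phosphatases that switch off ERK were among the highest: Dusp5 was at 5.65 RPKM in 28014 and 86.0 in 28018, and Dusp4 at 6.11 and 75.0. The untreated libraries had 6.42 and 11.2 RPKM of Dusp5, and the large table reached 59.5. Maff, a small Maf factor, was at 17.0 and 140, and Egr2, a zinc finger factor, at 1.15 and 20.1.

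Fos, the first AP-1 gene of the serum response, was low in both libraries. It had 26.9 RPKM in 28014 and 8.74 in 28018, a ratio of 0.325 (0.296 to 0.355), while the large table ran from 15.3 to 2200, so 28018 was the lowest of all 29 libraries. Jund was at 244 and 70.8 RPKM, the growth arrest gene Gadd45a at 40.4 and 11.5, and the stress factor Atf3 at 7.47 and 1.57. Fosl1, the AP-1 factor that is known to come up after Fos, was at 3.26 and 23.9, with at most 4.34 in any other library. In 28018, the AP-1 gene Fos was thus at its lowest and Fosl1 at its highest level of the 29 libraries.

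Against both untreated libraries, 13 of the 38 immediate early genes were 2-fold above in 28018 and 3 were below, against backgrounds of 3.64% and 4.01%. Genes that were above all 28 others, counted over 9779 genes with a background of 1.24% above and 0.798% below, were Dusp4, Fosl1, Dusp10 and Spred2. Dusp10 is a phosphatase of stress kinases and Spred2 an inhibitor of the Ras to ERK path. All 4 were chosen by their values, and Fosl1 passed the level filter of that count only through 28018.

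The Dusp5 promoter is shown as the immediate early gene with the highest difference. The stretch is chr19:53528995-53529094 on the plus strand of GRCm38.p6, from 150 to 51 bases before the start, and capitals mark 2 adjoining CArG boxes, the letters that SRF reads.
Dusp5: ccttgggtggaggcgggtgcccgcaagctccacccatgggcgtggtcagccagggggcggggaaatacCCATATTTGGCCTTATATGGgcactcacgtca
A CArG box was found in 3 of 33 matched immediate early promoters (9.09%), in 8 of 36 matched SRF and actin promoters (22.2%) and in 1.57% of all genes, in the window from 250 bases before to 50 after the start.

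Secreted growth factors and cytokines that serum is known to induce were mostly higher in 28018. Of 36 list genes, 23 were called higher and 3 lower, and 6 of the 36 passed the level filter only through 28018; of the 30 with at least 1 RPKM in both libraries, 17 were higher and 3 lower. Over all genes 8.99% were higher and 16.8% lower. The median difference was 1.75, and no like-labelled pair of the large table had a median beyond 0.61. Against both untreated libraries, 19 of 36 were 2-fold above and 2 below (background 3.64% and 4.01%), and 13 were above all 28 others (background 1.24%). The level filters of these counts could be passed through 28018 alone, so the counts are no support by themselves. Il11, Ereg, Has2 and Has1 passed the filter of the last count only through 28018. The summed level was 14341 RPKM in 28018, 3318 in 28014 and 1310 to 8076 in the large table.

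Inhba, the subunit of activin A, was at 26.04 RPKM in 28014, 46.4 in 30256, 81.4 in 28013, 118 in 30255 and 976 in 28018. The ratio of the pair was 37.5 (35.5 to 39.6), and 28018 was far above the other 28 libraries, whose highest was 118. Hbegf, a ligand of the EGF receptor, was at 7.13 in 28014, 21.9 in 30256, 13.02 in 28013, 38.4 in 30255 and 221 in 28018. Ptgs2, the inducible cyclooxygenase, was at 2.25, 5.57, 3.80, 12.9 and 66.0 in the same order. In all 3 genes 28014 was the lowest and 28018 the highest of the 5.

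Fgf7, a growth factor for epithelia, was at 0.926 RPKM in 28014 and 18.6 in 28018. Csf1, the macrophage growth factor, was at 136 and 772, and Plaur, the urokinase receptor, at 43.2 and 205. Il11 was at 1.55 and 15.9 and the EGF receptor ligand Ereg at 1.57 and 14.2. Thbs1, a matrix glycoprotein, was at 1259 and 4161, but the untreated libraries had 4032 and 4654, so there 28014 was the low one. Gdf15 (9.02 and 1.16), Plat (160 and 42.1) and Nrg1 (5.70 and 2.29) were the 3 members called lower.

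The SRF, actin and contractile list had a median of 0.19, against -0.22 over all genes. Its medians in like-labelled pairs reached 0.54 in either direction. Of 41 genes, 5 were called higher and 2 lower (background 8.99% and 16.8%), and on centring 11 and 2. Tagln2, an actin-binding protein, was at 157 RPKM in 28014 and 579 in 28018, and the actin crosslinkers Flnc and Actn1 were at 109 and 331 and at 315 and 739. Actb was at 2400 and 3922 and Acta2, the smooth muscle actin of contractile fibroblasts, at 2885 and 3094. Acta1, the skeletal actin, was at 230 in 28014 and 53.3 in 28018, with 376 in 30256, 16.3 in 28013 and 28.1 in 30255, so the 2 other libraries with the treatment label were high.

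Myc itself was at 8.83 RPKM in 28014 and 72.7 in 28018, a ratio of 8.23 (7.61 to 8.91). The large table held 0.677 to 51.1, with 14.2 and 17.0 in the untreated double-floxed libraries. The list of its network did not follow one direction. Of 20 genes 3 were called higher and 5 lower (background 8.99% and 16.8%), or 4 and 2 on centring. The list median of -0.16 becomes 0.08 when the libraries are centred. Srm, the spermidine synthase, was at 57.6 and 211. Mxd4 and Mxd1, which pair with Max in place of Myc, were at 180 and 39.8 and at 3.51 and 0.886.

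Ribosome assembly genes were higher in 28018 nearly throughout. Of 47, 27 were called higher and 0 lower (background 8.99% and 16.8%), 45 had a positive difference, and the median was 1.10, with no like-labelled pair beyond 0.49. Nop56, a core protein of the particles that methylate ribosomal RNA, was at 20.1 RPKM in 28014, 34.1 in 30256, 22.2 in 28013, 34.2 in 30255 and 106 in 28018. Nop58, its partner, was at 5.90 and 31.1. The pseudouridine synthase Dkc1 was at 0.808 and 6.82, and Polr1b, a subunit of RNA polymerase I, at 2.61 and 13.9. Pno1, at 20.5 and 14.4, was 1 of the 2 below 0.

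Against both untreated libraries, 17 of the 47 ribosome assembly genes were 2-fold above in 28018 and 0 below (background 3.64% and 4.01%), and 5 were above all 28 others (background 1.24%): Nop56, Nop2, Polr1b, Pwp2 and Rrp12. Of these 5, Polr1b passed the level filter of that count only through 28018. The summed level of the list was 625 RPKM in 28014 and 1320 in 28018, with 484 to 850 in the large table. So 28018 was above the range of all other libraries by this sum, and 28014 inside it. The Nop2 promoter is shown as that of an rRNA methyltransferase gene of the list (21.6 and 74.2 RPKM) with an E-box close to its start. The stretch is chr6:125131733-125131832 on the plus strand of GRCm38.p6, from 150 to 51 bases before the start, and capitals mark CACGTG, the letters that Myc and Max bind, which read the same on both strands.
Nop2: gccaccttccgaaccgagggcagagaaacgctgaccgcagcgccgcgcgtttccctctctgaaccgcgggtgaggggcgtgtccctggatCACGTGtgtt
In the window from 250 bases before to 50 after the start, 10 of 43 matched ribosome assembly promoters (23.3%) held CACGTG, against 7.24% of all genes.

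Cell division genes did not show one direction. Of 19 G1 genes 1 was called higher and 4 lower, of 30 DNA replication genes 0 and 5, and of 20 mitosis genes 3 and 0, with medians of -0.60, -0.48 and 0.41. The shares over all genes were 8.99% higher and 16.8% lower, so the G1 and replication counts were near the background. The G1 and replication medians lay beyond those of like-labelled pairs, which reached 0.29 and 0.30 in either direction. The mitosis median lay within its range of 0.42, and 5 of its 20 genes passed the level filter only through 28018. On centring the counts became 2 and 3, 2 and 2, and 4 and 0, and the medians -0.36, -0.24 and 0.65. Pcna, the sliding clamp of DNA polymerase, was at 31.2 RPKM in 28014 and 15.02 in 28018, and the helicase subunit Mcm6 at 3.46 and 7.59. Cdkn1b, the p27 inhibitor of G1 kinases, was at 13.2 and 3.72, while the other 28 libraries had 9.02 or more. Cdkn1a, the p21 inhibitor, was at 650 and 339, and Cdkn2a at 273 and 111. The 3 inhibitors were thus lower in 28018, Cdkn1a by less than 2-fold.

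Genes tied to rest and to FoxO factors were lower in 28018. Of 34, 15 were called lower and 1 higher (background 16.8% and 8.99%), with a median of -0.63 against -0.22 over all genes and at most 0.26 in either direction in the like-labelled pairs. On centring 10 were lower and 2 higher, with a median of -0.39. Against both untreated libraries 10 were 2-fold below and 1 above (background 4.01% and 3.64%), and 7 of the 34 were below all 28 other libraries (background 0.798%). Ccng2, a cyclin that FoxO factors are known to drive, was at 10.3 RPKM in 28014, 11.99 in 30256, 9.72 in 28013, 10.54 in 30255 and 1.45 in 28018. Pnrc1 was at 59.4 and 9.03, and the stress gene Sesn3 at 19.2 and 3.19. All 3 were below the lowest library of the large table. Gas7 was the 1 higher member, at 1.81 and 22.1.

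Stress and metabolic lists were mixed, and several of their counts were near the shares over all genes, 8.99% higher and 16.8% lower. Of 21 p53 targets 8 were called lower and 1 higher: Bbc3, a death gene, was at 23.97 RPKM in 28014 and 4.398 in 28018, and the kinase gene Plk2 at 18.6 and 83.5. Of 16 clock genes 5 were lower, Dbp among them, and Arntl, the clock activator, was the 1 higher at 3.70 and 14.7. Of 32 genes of cholesterol synthesis and its SREBP factors 10 were higher and 5 lower. The cholesterol exporter Abca1 was at 11.5 and 2.27. Of 27 glycolysis and hypoxia genes 6 were higher and 7 lower, and of 27 integrated stress response genes 2 and 7, where the median changed sign from -0.12 to 0.12 on centring. Of 27 folding and heat shock genes 1 was higher and 2 lower. On centring, 2 clock genes and 3 glycolysis and hypoxia genes were lower, and 7 folding genes were higher.

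**Figure D4:**
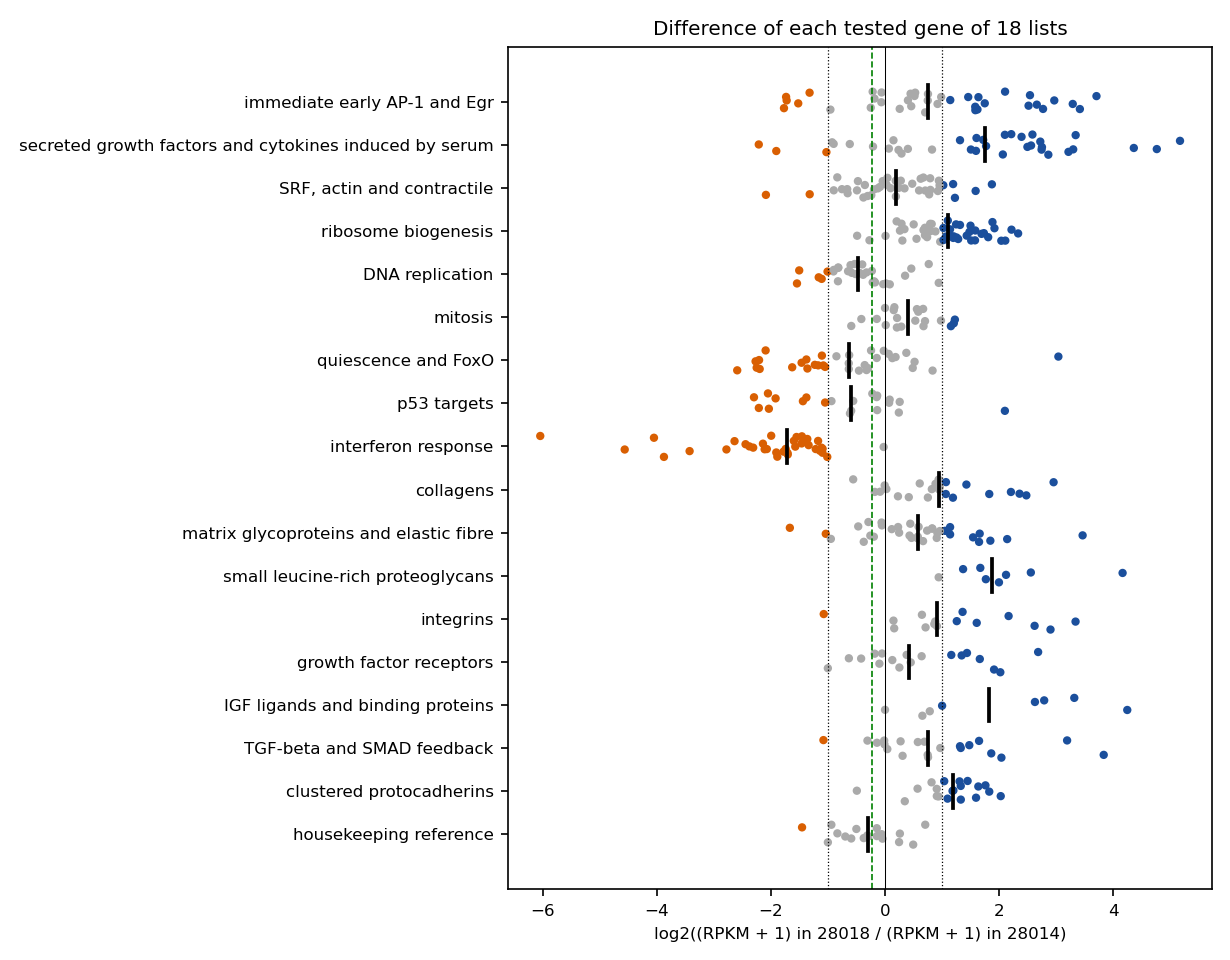
Difference of each gene in 18 lists, log2((RPKM + 1)/(RPKM + 1)), 28018 against 28014; 1 point a gene, a black bar at each list's median, dotted lines at 2-fold and a green dashed line at the median of all genes, -0.22. The interferon list (median -1.72) lies to the low side and the secreted factors (1.75) and small leucine-rich proteoglycans (1.89) to the high side.

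Matrix genes were higher in 28018 than in 28014, but at levels that the untreated cells mostly shared. Of 23 collagens 9 were called higher and 0 lower (background 8.99% and 16.8%), with a median of 0.94, and 1 was 2-fold above both untreated libraries. On centring 14 were higher. Of the 21 collagens with at least 1 RPKM in both libraries, 8 were higher and 0 lower. Col11a1, a fibril-starting collagen, was at 5.02 RPKM in 28014 and 45.8 in 28018, with 50.7 in 28013, 136 in 30255 and 23.5 in 30256. Col12a1 was at 52.9 and 248, and the main fibril chains Col1a1 and Col1a2 were at 2548 and 4299 and at 1080 and 2090. Of 35 matrix glycoproteins and elastic fibre genes, 9 were higher and 2 lower (14 and 1 on centring), and 0 were 2-fold above or below both untreated libraries.

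Eln, the elastin gene, was at 22.9 RPKM in 28014, 9.02 in 30256, 276 in 28013, 175 in 30255 and 264 in 28018. Fmod, a proteoglycan that shapes collagen fibrils, was at 10.52, 9.89, 211, 144 and 206 in the same order. Lox, the enzyme that crosslinks collagen and elastin, was at 432, 307, 1999, 1418 and 2401. In all 3 genes, 28018 and the 2 untreated libraries were high and the 2 others low. Of the 8 small leucine-rich proteoglycans, 7 were called higher (background 8.99%), among them Dcn at 36.0 and 218, and 0 of them were 2-fold above both untreated libraries. Of the 7 with at least 1 RPKM in both libraries of the pair, 6 were higher.

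Matrix-cutting enzymes and their inhibitors split. Of 22, 7 were called higher and 5 lower (background 8.99% and 16.8%), and the median of -0.02 becomes 0.22 on centring. The inhibitors Timp1 and Timp3 were at 198 and 747 RPKM and at 168 and 996, and Timp1 was at most 344 in the other libraries. The proteoglycan-cutting enzymes Adamts1 and Adamts5 were at 64.3 and 14.2 and at 26.8 and 3.88, with 102 and 63.3 of Adamts5 in the untreated libraries. Both were lower in 28018 than in all 28 others. Of 22 genes of collagen processing and crosslinking 4 were higher and 1 lower, against the same background.

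Itga5, the chain of the fibronectin receptor, was at 70.1 RPKM in 28014, 110 in 30256, 61.2 in 28013, 91.7 in 30255 and 721 in 28018. The ratio of the pair was 10.3 (10.08 to 10.50), and no other library was above 110. Of 15 integrins 7 were called higher and 1, Itgb5 at 274 and 130, lower (background 8.99% and 16.8%). Since 4 of the 15 passed the level filter only through 28018, that count is no support by itself. Of the 11 with at least 1 RPKM in both libraries, 5 were higher and 1 lower. The collagen receptor chain Itga11 was at 16.2 and 128.

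Among growth factor receptors 7 of 18 were called higher and 0 lower, with Fgfr1 at 73.3 RPKM in 28014 and 302 in 28018. For this and the other lists of this paragraph, the shares over all genes were 8.99% higher and 16.8% lower. Of 8 IGF ligands and binding proteins 5 were higher. Igf2, the imprinted growth factor next to H19, was at 28.6 in 28014, 58.8 in 30256, 449 in 28013, 265 in 30255 and 562 in 28018, so 28018 stood with the untreated libraries. Igfbp3 was at 173 and 1080 and Igfbp6 at 212 in both. Of 21 TGF-beta and SMAD feedback genes 8 were higher and 1 lower. Fst, which binds activin, was at 20.9 and 199. Of 14 complement genes 5 were higher and 1 lower, but 3 passed the level filter only through 28018 and 1 only through 28014. Of the 10 with at least 1 RPKM in both libraries, 4 were higher and 0 lower.

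**Figure D5:**
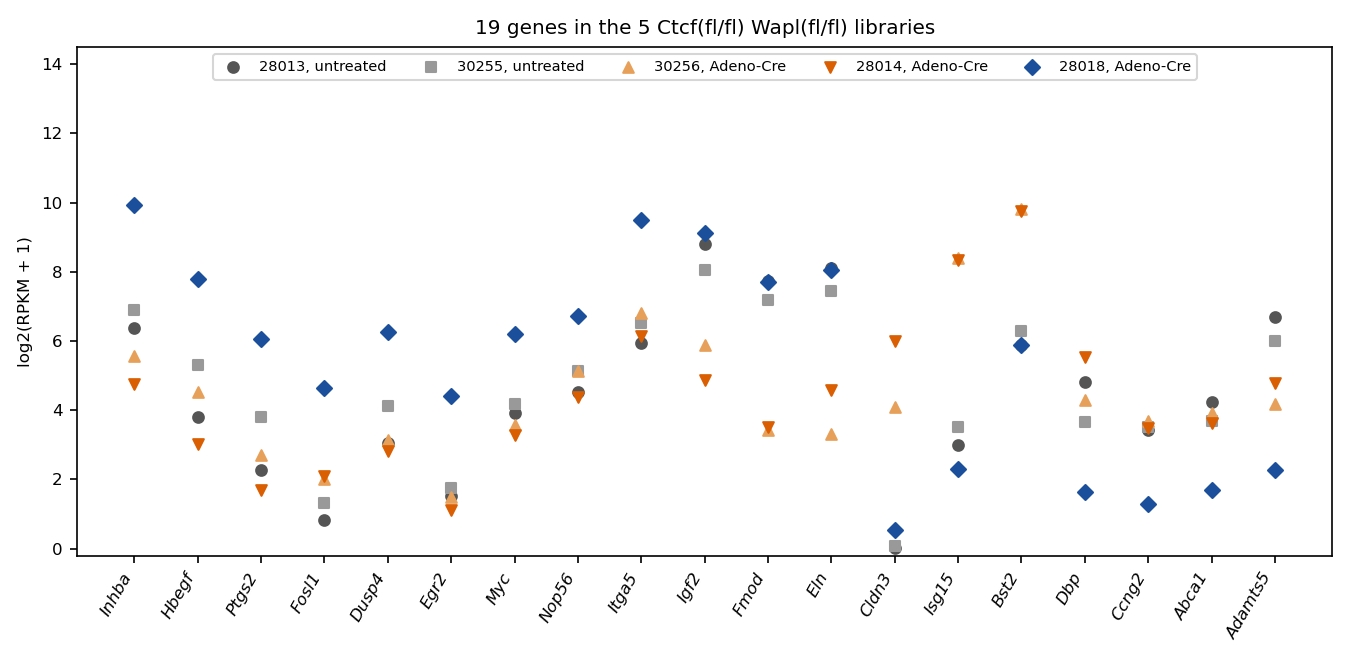
Levels, log2(RPKM + 1), of 19 genes in the 5 libraries of Ctcf(fl/fl) Wapl(fl/fl) cells; the libraries of the 2 tables were normalized separately. Inhba, Hbegf, Ptgs2 and Itga5 are highest in 28018 alone, while for Igf2, Fmod and Eln 28018 is level with the untreated 28013 and 30255, and for Cldn3, Isg15 and Bst2 28014 and 30256 are high.

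The clustered protocadherins, cell surface genes whose promoter choice CTCF is known to steer, summed to 71.4 RPKM in 28014, 61.4 in 30256, 156 in 28018, 234 in 28013 and 168 in 30255. Of 43 members 20 passed the level filter, 17 of them only through 28018, so their 13 calls higher and 0 lower are given as counts only. The shares over all genes, for these and the counts below, were 8.99% higher and 16.8% lower. Pcdhga7 was at 0.492 RPKM in 28014, 0.362 in 30256, 8.44 in 28013, 6.46 in 30255 and 5.10 in 28018. Pcdhgc3 was at 56.4 and 100 in the pair. Of 17 tested genes from a list of genes that changed with Ctcf deletion in the large table, 9 were higher and 5 lower in 28018; that list was chosen on libraries of this study and is no independent evidence. Among 11 genes of cohesin and its partners, Ctcf was the 1 higher and Stag1, at 6.63 and 2.66, the 1 lower. Of 18 housekeeping genes 0 were higher and 1 lower, with a median of -0.30.

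Library 28018 held 121 genes at least 2-fold above and 78 at least 2-fold below all 28 other RNA-seq libraries. With each library centred, it held 163 and 39, so the lower count depends on the scaling. A gene could pass the level filter of this count through any 1 library, and some of the 121, such as Aqp3, passed only through 28018. The 27 libraries of the large table had 0 to 18 above, with a median of 1, and 0 to 16 below, with a median of 0, and 28014 had 26 and 5. Of these genes of 28018, 33 above and 18 below were members of the lists used here. Others, chosen after their values were seen, were the water channel gene Aqp3 (24.2 RPKM, next highest library 0.584), the chondroitin sulfotransferase gene Chst11 (112, next 11.2), the proteoglycan gene Cspg4 (170, next 23.4) and the hyaluronan receptor gene Cd44 (178, next 41.7). Hmga2, a chromatin protein of growing embryonic cells, was at 73.6 with 22.0 next. Lpin1, a phosphatidate phosphatase, was at 2.16 in 28018, and no other library was below 11.7.

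Fibroblast markers were abundant in both libraries, with a sum of 15183 RPKM in 28014 and 14745 in 28018. Markers of other cell types were read beside these results. The macrophage list summed to 72.0 RPKM in 28014 and 124 in 28018, against 31.0 to 5420 in the large table. All 13 tested genes were higher in 28018, 4 of them called (7 on centring), against 8.99% called higher over all genes. Since 3 of the 13 passed the level filter only through 28018, that count is no support by itself. Of the 10 with at least 1 RPKM in both libraries, 3 were called higher and 0 lower. The list median was 0.77, while its medians in like-labelled pairs reached 4.235 in either direction, so the list did not stand out. Ptprc, the pan-leukocyte CD45, was at 0.0533 and 0.0607. The endothelial sum was 18.4 and 82.9, of which Flt1 made 10.2 and 78.9, while Pecam1 was at 0 and 0.0521 and Cdh5 at 0.0379 and 0.151. Ptprc, Pecam1 and Cdh5 were thus near 0 in both libraries, while the sums of both lists were higher in 28018. The part of such cells in the differences was not tested.

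Epithelial genes did differ. Krt8 was at 0.418 RPKM in 28014 and 18.03 in 28018, the highest of all libraries, and Krt18 at 8.71 and 38.7, whereas Krt19 was at 78.6 and 29.7 and the claudin Cldn4 at 18.5 and 2.12. Of 6 epithelial genes tested, 3 were higher and 3 lower (background 8.99% and 16.8%), and the sum was 171 in 28014 and 96.4 in 28018. The level filter was passed only through 28018 by 2 of the 6 and only through 28014 by 1. Of the 3 with at least 1 RPKM in both libraries, 1 was higher and 2 lower. Cdh1, which marks epithelia, was at 0.0137 and 0.0780 and Epcam at 0.454 and 0.376. In bulk RNA, more cells of a type and more RNA per cell cannot be told apart, and the part of epithelial cells in the differences was not tested either.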

How the data were processed

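RNA from resting mouse embryonic fibroblasts was sequenced after polyA selection, per the labels' protocols. The authors deposited RPKM values per gene, per the file headers, in 2 tables that were normalized separately. Per the submitters' processing notes, mm9, TopHat 1.3.1 and 1.4.1, Bowtie 0.12.5, HTSeq, bedtools and MACS 1.4.2 were used, with no role given. Whether the counting used strand is not given in the sources used here. Reads of overlapping and antisense genes may therefore be mixed.

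The table of 28014 and 28018 held 23868 rows for 23339 entries; the first row of each of the 271 repeated entries was kept, and repeated values were equal. Reads per gene were recovered from the smallest steps of the RPKM values and came out whole, within 0.00010 reads, for 99.89% of 15401 entries. They served for intervals (exact binomial, 95%) and depth only. No test was made, because both libraries carry the same labels. The call rule and the intervals were checked on simulated reads. The recovery of reads from RPKM steps was not part of that check. Named genes were Ctcf, Wapal, the 15 highest and 15 lowest with at least 5 RPKM, and in each list up to 4 highest, 4 lowest and 2 with the highest level in 28014; a few more were chosen after their values were seen, and some genes are not reported here. Members and lists were chosen with earlier results of these data known. Promoters are RefSeq's on GRCm38.p6, matched by symbol, and no coordinate was moved between builds. Python 3.11.15, numpy 2.4.6, pandas 2.3.3, scipy 1.17.1, statsmodels 0.14.6 and matplotlib 3.10.9 were used. Alternatives were other pseudocounts, level filters, repeated rows, centring and a gene-length trend.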

Additional observations from a re-analysis of the deposited data

How the results depend on the processing

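No paired analysis was possible because the 2 libraries carry the same labels and are 1 against 1; leaving out a library leaves no comparison. With a pseudocount of 5 in place of 1, 503 genes were 2-fold higher and 936 lower; with 0.1 it was 1346 and 2452, and with at least 5 RPKM 813 and 1462. Centring gave 1230 lower and 1449 higher, a distance of 0.504 between 28018 and 30256, and, as a choice made after seeing the data, 39 genes below all other libraries, with 163 above. Scaling by median ratios put Ctcf of 28018 at 8.96 and Wapal at 2.46. A 1.5-fold gap, also chosen after seeing the data, gave 77 genes that set Ctcf-deleted libraries apart, with 28014 on the deleted side for 74 and 28018 for 9. All 30 extreme genes stayed past 2-fold in the alternatives run, but they were picked as the most extreme, so this is no check. Of 32 named differences, 26 moved by more than their counting interval allows with a pseudocount of 0.1. With 5 it was 31, and on centring 12. Of 38 list medians, 22 moved on centring by more than the standard deviation of that list's median over like-labelled pairs. Without a level filter, the median of the genes that changed with Ctcf deletion turned from 1.37 to -0.018, with genes of low level added. At most 4 of 38 list medians took another sign under any 1 alternative run. Genes of few reads are limited by depth, such as Eif2s3y with 1 read in 28018.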
